A study of Mus musculus with 9 samples.

Results

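The comparison described here is of macrophages given LPS together with BHB and macrophages given LPS alone. Its members were selected by column of the deposited count table, which gave 6 of the 9 libraries of the series, 3 of each group, fitted on their own over all genes. The cells were bone marrow-derived macrophages, which are grown in culture from marrow precursors, of wild-type Balb/c mice aged 6 weeks, and these attributes were the same in every group. The 3 remaining libraries, labelled as control, had neither agent and are given as levels beside the results. The labels state no dose, time or order of addition, and no library had BHB without LPS. They also do not say that the 3 libraries of a group came from separate cultures or animals, so p-values measure the spread between these samples, which may be technical.

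LPS usually stands for lipopolysaccharide, a component of the outer membrane of Gram-negative bacteria that macrophages sense through Toll-like receptor 4 with its co-receptors CD14 and MD-2. Signalling from that receptor runs through NF-kB and interferon regulatory factors to cytokine, chemokine and metabolic genes, and is held back by induced inhibitors and by interleukin 10. BHB usually stands for beta-hydroxybutyrate, a ketone body that cells can burn as fuel, that binds the surface receptor encoded by Hcar2, and that has been studied as an inhibitor of histone deacetylases.

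The total count per library lay between 29633411 and 32228186, and 13005 of 46095 listed symbols had enough counts to be tested. The first principal component held 72.4% of the variance and parted the groups. The second held 7.69% and set replicate 3 of both groups apart from the others. Of 12 macrophage markers 11 were tested, 6 of them higher and 3 lower. Their level in CPM (the reads of a gene scaled to a common library size) summed to 10600 to 11800 in the LPS libraries. With both agents the sum was 15300 to 15900, and in control 24800 to 28500. Most of the difference between the treated groups was Cd14, at a mean of 1543 CPM with LPS and 5372 CPM with both agents. Aif1 was listed at 0 in the 6 libraries. So were Brd2, Psmb9 and Tnf, which like Aif1 lie on chromosome 17 in RefSeq's GRCm38.p6 annotation, and whether these zeros come from the counting was not tested. They were not the only zeros: Oas1a, Nlrp12, Retnla, Clec10a and Alox15 were among other listed genes at 0 in the 6 libraries. Markers of other blood cells were low: neutrophil genes summed to 1.96 to 3.46 CPM without BHB and 4.85 to 7.26 CPM with it (3 of 4 tested were higher), B cell genes to at most 0.764 CPM, and mast cell genes to at most 0.0337 CPM. Dendritic cell genes, of which 1 of 3 tested was lower, summed to 411 to 494 and 315 to 418 CPM, most of it Itgax. Flt3, Xcr1, Clec9a, Cd209a and Siglech of that list had at most 8 counts per library. Erythroid and megakaryocyte genes summed to 0.436 to 0.830 and 1.37 to 1.92 CPM. In the T and NK cell list, at 2.23 to 3.29 and 2.44 to 3.80 CPM, Ncr1, Klrb1c and Nkg7 were at 0. The stromal list, of which 2 of 7 tested genes were higher, summed to 94.3 to 103 CPM and 122 to 147 CPM, most of it Pdgfrb. The part of these markers in the results was not tested. Fewer cells of a type and less RNA per cell cannot be told apart in such bulk samples.

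A call here is an adjusted p under 0.05 in edgeR (quasi-likelihood F test, Benjamini-Hochberg over all 13005 genes). By that rule 6883 genes (52.9%) differed, 3487 (26.8%) higher and 3396 (26.1%) lower with LPS plus BHB. Larger changes leaned upward: 993 genes (7.64%) were at least 2-fold higher and 455 (3.5%) at least 2-fold lower. The CPM of the groups did not overlap for 59.9% of genes. With so many genes called, the count for any gene list below is to be read against 26.8% higher, 26.1% lower and a median log2 fold change of -0.007 over all genes tested. Among genes above 100 CPM 33% were higher and 39.9% lower, among those at 10 to 100 CPM 31.5% and 33.2%, and among those under 1 CPM 10.6% and 7.44%. Genes at least 2-fold higher had a median GC content of 52.5% and those at least 2-fold lower 48.6%, against 49.5% for all genes tested.

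**Figure D1:**
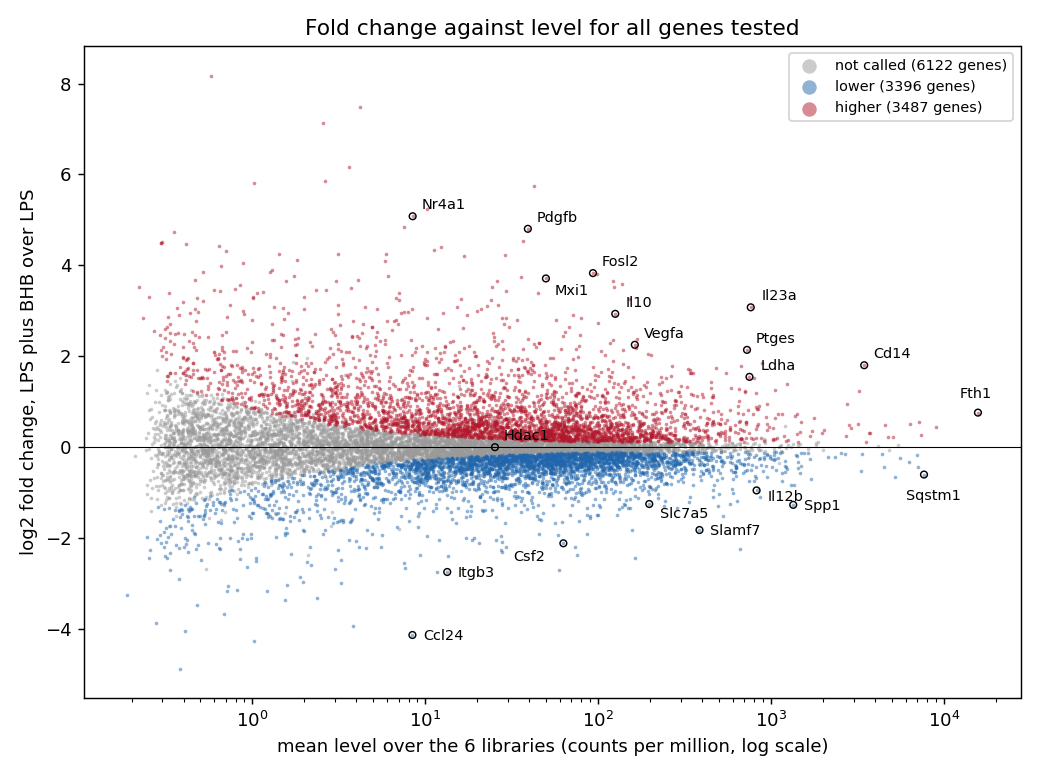
Log2 fold change of LPS plus BHB over LPS (vertical axis) against the mean level over the 6 libraries in CPM (log scale) for all 13005 genes tested, coloured by call (red higher, blue lower, grey not called). Rises reach further from 0 than falls, as the 993 genes at least 2-fold higher against 455 at least 2-fold lower show, and Hdac1 lies on the zero line.

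Genes were named by a rule of size and rank given with the processing, and list members named outside it were chosen after their values were seen. For the largest rises and falls the rule admitted only called genes whose groups did not overlap, so their calls and separation follow from it. List members were picked by smallest p or with their values known, so groups that do not overlap are no added support for them either. Such statements below describe the values and are to be read against the 59.9% of all genes tested. The largest rises included regulators of transcription, growth, the cytoskeleton and the cell surface. Fosl2, an AP-1 transcription factor gene (chromosome 5, 32135801 to 32157842, + strand, GRCm38), stood at 11.9, 14.2 and 10.8 CPM in the LPS libraries and at 168, 166 and 189 CPM with LPS plus BHB. The log2 fold change was 3.83 (SE 0.08, edgeR adjusted p = 2.86e-15), and control libraries held 68.3 to 68.9 CPM. Pdgfb, which encodes a chain of platelet-derived growth factor, stood at 3.26, 2.16 and 2.68 CPM with LPS and 76.4, 63.4 and 87.2 CPM with LPS plus BHB (log2 fold change 4.80, SE 0.16), against 125 to 134 CPM in control. Pdlim7, an actin-associated adaptor gene, stood at 3.02, 3.08 and 2.61 CPM against 53.3, 51.6 and 58.9 CPM (4.23, SE 0.10), while control held 3.04 to 4.26 CPM. So Fosl2 was above its control level with both agents, Pdgfb was below it, and Pdlim7 was near its control level with LPS and above it with both agents. The noncoding RNA gene AI504432 rose from a mean of 13.1 to 183 CPM. Havcr2, which encodes the checkpoint receptor TIM-3, rose from 0.829 to 11.3 CPM, Tgfbi, a secreted matrix protein gene, from 1.71 to 31.6 CPM, and Fabp7, a fatty acid-binding protein gene, from 0.639 to 11.03 CPM. Armcx4 and Rab11fip4, an endosomal recycling gene, had log2 fold changes of 4.25 (SE 0.21) and 4.34 (SE 0.22). Ctla2b, at 4.53, is uncertain because 76.2% of its 31-base words also occur in transcripts of other genes.

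The largest falls included a kinase, a lipase, a channel and a transaminase gene. Plk2, a stress-responsive kinase gene, stood at 1026, 1034 and 1203 CPM in the LPS libraries and 224, 248 and 214 CPM with LPS plus BHB. The log2 fold change was -2.25 (SE 0.07, edgeR adjusted p = 2.66e-12), and control held 150 to 185 CPM. Mgll, the lipase that completes triglyceride breakdown, fell from 127, 124 and 130 CPM to 26.2, 28.2 and 18.4 CPM (-2.38, SE 0.14). Aqp9, a glycerol and water channel, fell from a mean of 45.5 to 9.40 CPM (-2.27, SE 0.10), and Bcat1, which transfers the amino group of branched-chain amino acids, from 15.7 to 3.04 CPM (-2.37, SE 0.24). Both were at or below 0.370 CPM in every control library. Tm4sf19 fell by 2.32 on the log2 scale, and the unnamed loci Gm14461 and Gm13889 by 2.74 and 2.70. Gm13889, Gm20056 (-2.21) and Gbp9 (-2.41) share 19.2%, 47.9% and 18.3% of their 31-base words with other genes, so their values are uncertain.

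**Figure D2:**
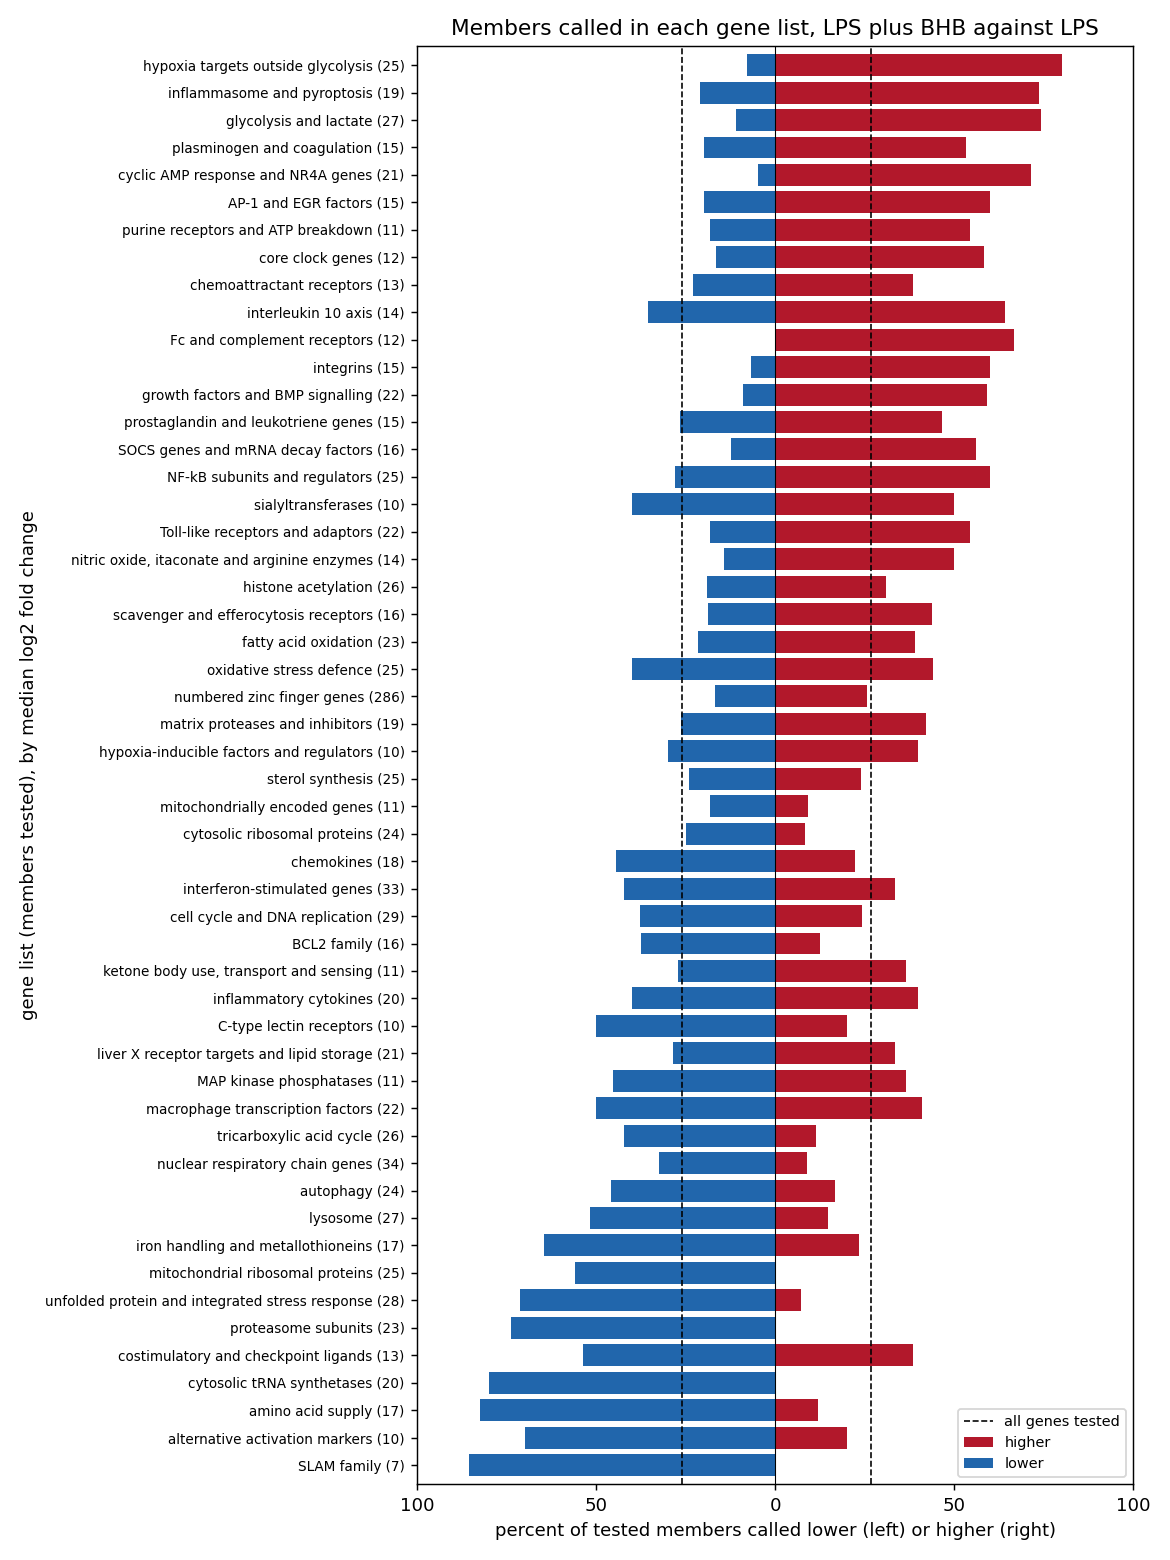
Percent of tested members called higher (red, right) or lower (blue, left) with LPS plus BHB in each of 52 gene lists, ordered by median log2 fold change, with the number tested in parentheses. Dashed lines mark the shares over all genes tested, 26.8% and 26.1%; hypoxia targets stand at the top and the SLAM family at the bottom.

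Cytokine genes split rather than moving one way. Of 20 tested inflammatory cytokine genes 8 were higher, 8 lower and 4 not called (median log2 fold change -0.05). Il23a, which encodes the p19 subunit of interleukin 23 (chromosome 10, 128296139 to 128298752, - strand), stood at 161, 172 and 153 CPM with LPS. With LPS plus BHB it stood at 1329, 1312 and 1451 CPM, a log2 fold change of 3.07 (SE 0.06, edgeR adjusted p = 1.88e-18). The lowest of these values was well above the highest with LPS, and control held 0.0292, 6.82 and 7.62 CPM: control replicates 2 and 3 hold low counts of several LPS-induced genes that replicate 1 nearly lacks. The gene for the shared p40 subunit, Il12b, went the other way, from a mean of 1088 to 561 CPM (-0.95, SE 0.17), as did that for the p35 subunit of interleukin 12, Il12a, from 77.4 to 32.0 CPM (-1.27, SE 0.07). Both subunits of interleukin 27 fell, Il27 from 470 to 202 CPM (-1.22, SE 0.05) and Ebi3 from 259 to 141 CPM (-0.88, SE 0.06). Thus the gene specific to interleukin 23 rose while the genes of the other subunits named here fell.

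The colony-stimulating factor genes Csf2 and Csf1 fell as well, and Csf3 is not reported here. Csf2, which encodes GM-CSF, stood at 101, 105 and 101 CPM with LPS and 28.7, 27.2 and 14.7 CPM with LPS plus BHB (log2 fold change -2.12, SE 0.27, edgeR adjusted p = 0.00252). Csf1, the macrophage growth factor gene, stood at 440, 424 and 373 CPM against 170, 181 and 134 CPM (-1.35, SE 0.12). For both the groups were apart, with replicate 3 lowest among the libraries with both agents. Il1a, which encodes interleukin 1 alpha, rose from 1913, 2001 and 1884 CPM to 4543, 4589 and 4453 CPM (1.23, SE 0.04, edgeR adjusted p = 7.91e-15). Tnf, the gene of tumour necrosis factor, was listed at 0 in all 6 libraries, so nothing can be said of it. With the control libraries in the fit, which differ among themselves in LPS-induced genes, Il1a (edgeR adjusted p = 0.220), Il12b (0.120), Il6 (0.239) and Acod1 (0.675) were not called, and 5 cytokine genes were higher in place of 8.

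**Figure D3:**
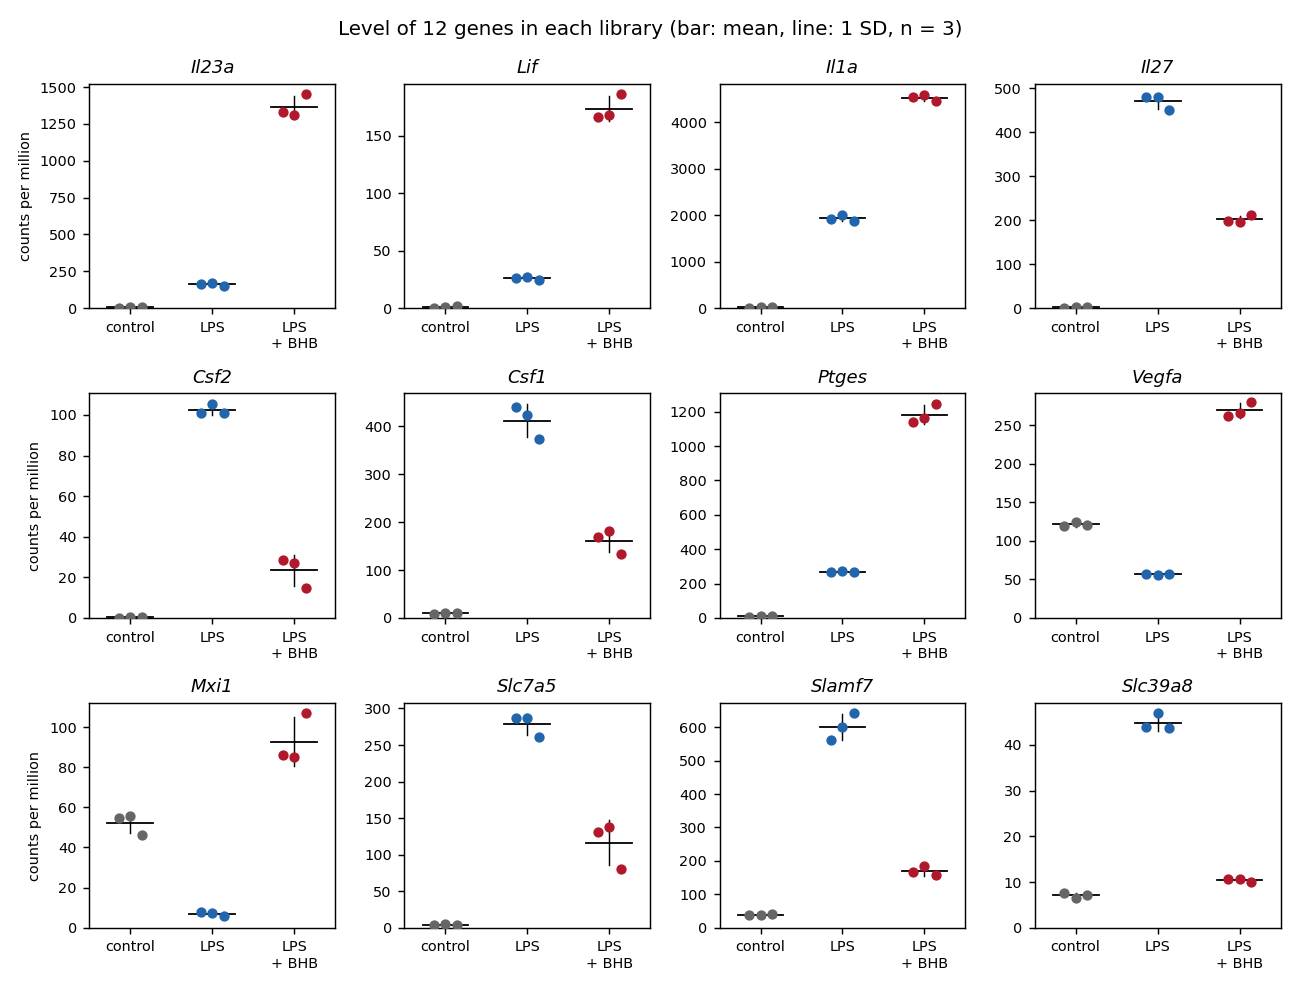
Level in CPM (vertical axis, from 0) of 12 genes in each library of control, LPS and LPS plus BHB, with the mean (bar) and 1 SD (line, n = 3). For every gene shown the 3 LPS plus BHB libraries lie apart from the 3 LPS libraries, as for 59.9% of all genes tested. For Slc39a8 the LPS plus BHB libraries lie at 9.96 to 10.8 CPM, near the control libraries at 6.52 to 7.6 CPM.

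Chemokine genes leaned lower, with 4 of 18 higher, 8 lower and 6 not called, although their median was -0.00. Ccl3, a ligand that draws monocytes and T cells, fell from 2094, 2102 and 2149 CPM to 1328, 1220 and 1353 CPM (log2 fold change -0.70, SE 0.05, edgeR adjusted p = 1.1e-10), and Cxcl2, a neutrophil attractant, from a mean of 5183 to 3794 CPM (-0.45, SE 0.05). Cxcl14 rose from 7.30, 8.08 and 9.25 CPM to 27.2, 25.5 and 30.0 CPM (1.75, SE 0.10), and control held 33.1 to 37.3 CPM. Ccl5, a T cell attractant, rose from 2486 to 3337 CPM (0.42, SE 0.04). Fitted with all 9 libraries, 2 chemokine genes were higher and 3 lower. Among 13 chemoattractant receptor genes 5 were higher and 3 lower (median 0.37), among them Cxcr4, which rose from 24.3 to 44.6 CPM and was at 298 to 313 CPM in control.

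Genes of the LPS recognition step moved apart. Of 22 genes of Toll-like receptors and adaptors 12 were higher and 4 lower (median 0.15). Tlr2, the receptor for bacterial lipoproteins, rose from 496, 492 and 512 CPM to 1146, 1146 and 1106 CPM (log2 fold change 1.18, SE 0.04, edgeR adjusted p = 2.1e-14), with groups that did not overlap. Among the genes of the LPS receptor complex, Cd14 rose from 1543 to 5372 CPM (1.80, SE 0.05). Tlr4 itself was at 25.4 and 24.3 CPM (-0.06, not called). Ly96, which encodes MD-2, fell from 23.8 to 14.1 CPM and Cd180, a related regulator, from 90.6 to 47.6 CPM. In the NF-kB list 15 of 25 genes were higher and 7 lower (median 0.19). Of the genes for the DNA-binding subunits Rela (-0.43) and Rel (-0.41) fell while Nfkb1 (0.29) and Nfkb2 (0.11) rose. The ABIN family of A20-binding inhibitors divided, with Tnip1 up from 598 to 1069 CPM and Tnip2 from 29.7 to 83.5 CPM, but Tnip3 down from 65.9 to 23.1 CPM (-1.51, SE 0.06).

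All 14 tested genes of the interleukin 10 axis were called, 9 higher and 5 lower (median 0.35). Apart from the ligand, Socs3, a feedback inhibitor of cytokine receptors, stood at 218, 232 and 206 CPM with LPS and 408, 402 and 438 CPM with LPS plus BHB (log2 fold change 0.93, SE 0.05, edgeR adjusted p = 1.23e-11). The ligand-binding receptor chain gene Il10ra rose from 76.6 to 122 CPM and the repressor gene Sbno2 from 76.8 to 136 CPM. The kinase genes of that receptor went apart: Jak1 fell from 611 to 318 CPM (-0.94, SE 0.05), while Tyk2 rose from 147 to 231 CPM. In the list of SOCS genes and mRNA decay factors 9 of 16 were higher and 2 lower (median 0.30), with Zfp36l1, whose product binds AU-rich mRNA, at 6.06 and 27.5 CPM (2.18, SE 0.11), although 55.9% of its exons overlap another gene. MAP kinase phosphatase genes showed 4 of 11 higher and 5 lower, with Dusp7 at 1.09 (SE 0.10) and Dusp2 at -0.87.

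Interferon-stimulated genes divided (median -0.02), with 11 of 33 higher and 14 lower. Stat2, a transcription factor of type I interferon signalling, rose from 197, 198 and 196 CPM to 296, 312 and 328 CPM (log2 fold change 0.66, SE 0.05, edgeR adjusted p = 4.9e-10), with groups that did not overlap and 71.8 to 81.8 CPM in control. Ifi44 fell from 106 to 46.9 CPM (-1.18, SE 0.05), and the guanylate-binding protein gene Gbp2 from 803 to 401 CPM (-1.001, SE 0.07). Interferon beta, Ifnb1, was at 2.66 and 2.58 CPM (-0.05, not called). In the inflammasome list 14 of 19 genes were higher and 4 lower (median 0.67). While Casp1, Casp4, Nlrp3 and Panx1 fell, the sensor genes for bacterial flagellin and secretion systems rose: Naip2 from 15.1 to 57.2 CPM (1.93, SE 0.09), Naip5 from 4.31 to 16.1 CPM and Nlrc4 from 9.68 to 27.1 CPM (1.49, SE 0.10). Pycard, the adaptor ASC, rose from 5.14 to 11.04 CPM.

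In the list of nitric oxide, itaconate and arginine enzymes 7 of 14 genes were higher and 2 lower (median 0.14). Ncf1, a subunit of the phagocyte NADPH oxidase, rose, at 428, 442 and 415 CPM against 1003, 1004 and 959 CPM (log2 fold change 1.21, SE 0.04, edgeR adjusted p = 2.57e-14). The catalytic subunit gene Cybb was at 5352 and 5529 CPM (0.05, not called). Ass1, which regenerates arginine from citrulline, rose from 4.62 to 23.0 CPM (2.32, SE 0.15). Gch1, which makes the cofactor of nitric oxide synthase, fell from 221 to 146 CPM.

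Most listed genes of the hypoxia response and of glycolysis were higher with BHB. Of 10 tested genes for hypoxia-inducible factors and their regulators 4 were higher and 3 lower (median 0.03), and of 25 hypoxia targets outside glycolysis 20 were higher and 2 lower (median 0.74). Glycolysis and lactate genes showed 20 of 27 higher and 3 lower (median 0.60). Genes whose products mark HIF-1 alpha for destruction or inhibit it divided. Vhl, of the ubiquitin ligase, stood at 20.1, 18.5 and 20.02 CPM with LPS and 63.5, 61.9 and 64.4 CPM with LPS plus BHB (log2 fold change 1.69, SE 0.07, edgeR adjusted p = 3.86e-14), and Egln3, a prolyl hydroxylase gene, at 2.49, 1.77 and 1.09 CPM against 14.8, 14.2 and 13.2 CPM (2.97, SE 0.19). No library of one group reached the other. Of the other hydroxylase genes Egln1 rose from 70.3 to 148 CPM (1.08), Egln2 was at 62.9 and 66.7 CPM (0.08, not called) and Hif1an fell from 65.3 to 49.3 CPM (-0.41). Cited2, whose product competes with HIF-1 alpha for its coactivator, fell from 238, 233 and 229 CPM to 107 CPM in each of the 3 libraries (-1.13, SE 0.05), with 71.2 to 80.8 CPM in control.

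Vegfa, the angiogenic factor gene (chromosome 17, 46016993 to 46032369, - strand), stood at 56.7, 55.7 and 57.4 CPM with LPS and 262, 266 and 280 CPM with LPS plus BHB. Control libraries, at 119 to 124 CPM, lay between (log2 fold change between the treated groups 2.25, SE 0.05, edgeR adjusted p = 1.64e-17). Mxi1, a repressor of the MYC network, had the same order, with 6.08 to 7.85 CPM with LPS, 46.3 to 55.7 CPM in control and 85.2 to 107 CPM with LPS plus BHB (3.71, SE 0.11). Pdk1, a kinase that inhibits pyruvate dehydrogenase, likewise stood at 4.37, 4.64 and 5.72 CPM with LPS, 12.04 to 13.9 CPM in control and 21.1, 21.5 and 20.02 CPM with LPS plus BHB (2.09, SE 0.11). For Bhlhe40, a transcription factor gene, the means were 30.8 and 121 CPM (1.98, SE 0.06). Bnip3, a mitophagy receptor gene at 24.1 and 133 CPM (2.47), shares 57% of its 31-base words with other genes and is uncertain. Against the list, Ndrg1 fell from 701 to 284 CPM (-1.30, SE 0.09).

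Along the glycolytic chain the glucose transporter gene Slc2a1 rose from 223, 231 and 206 CPM to 512, 507 and 438 CPM (log2 fold change 1.14, SE 0.06, edgeR adjusted p = 4.68e-11), Pfkl, of the committed step, from 175 to 406 CPM (1.22, SE 0.05), and Pgk1 from 79.95 to 129.9 CPM (0.70, SE 0.05). Hexokinase genes went apart: Hk1 rose from 144 to 320 CPM (1.15, SE 0.05) and Hk2 from 389 to 551 CPM, while Hk3 fell from 649, 646 and 715 CPM to 324, 340 and 323 CPM (-1.03, SE 0.05). The transporter gene Slc2a6 fell from 936 to 559 CPM (-0.74, SE 0.05), and Pfkfb2 was the third listed gene that fell, at -0.39. Gapdh was listed at 5.57 and 16.9 CPM, and with 28.1% of its words shared with other genes it is uncertain, as are Ldha (19.6%) and Tpi1 (10.5%).

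**Figure D4:**
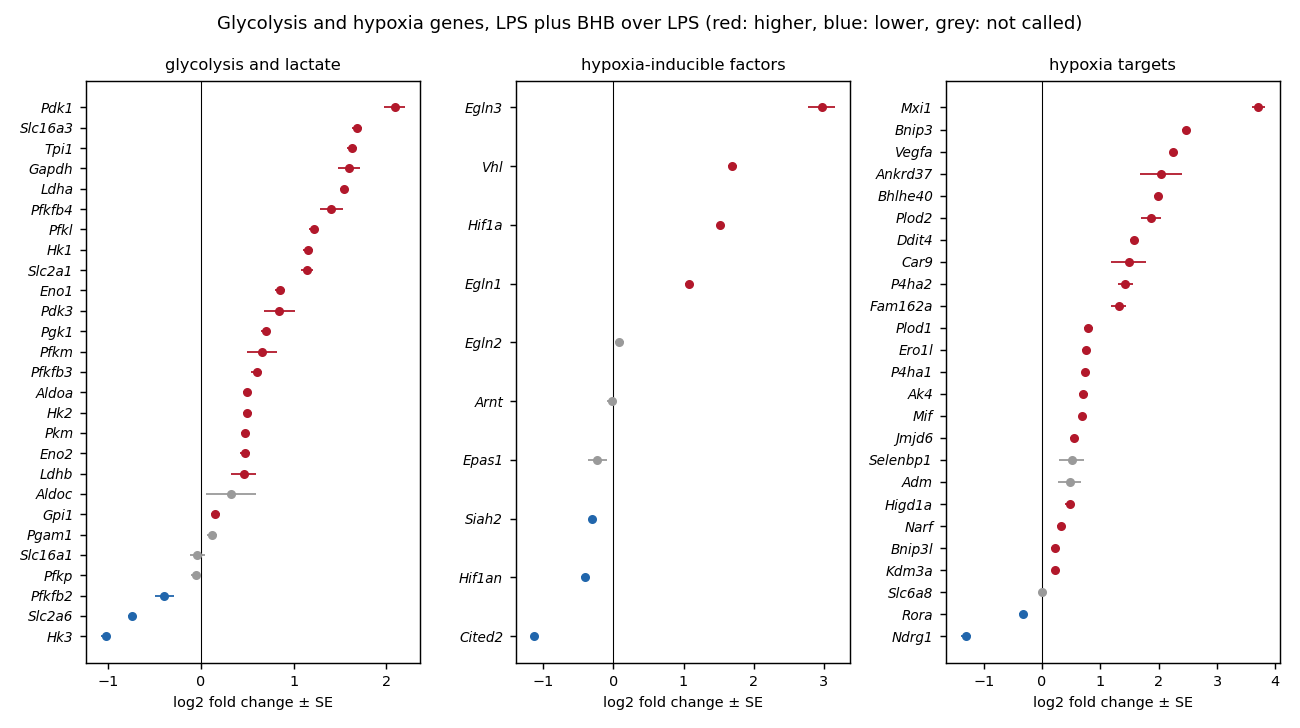
Log2 fold change with its SE (horizontal axis) for each tested gene of glycolysis, of hypoxia-inducible factors and of hypoxia targets, red where higher, blue where lower and grey where not called with LPS plus BHB. Pdk1 at 2.09, Egln3 at 2.97 and Mxi1 at 3.71 lie furthest right in their panels, and Hk3, Cited2 and Ndrg1 furthest left, at -1.03, -1.13 and -1.30.

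The promoters of 3 glycolysis genes that rose and 1 that fell are shown because hypoxia-inducible factors bind a short core whose letters can be searched. Each is the 250 bases before the start site in RefSeq's table for GRCm38.p6, 5′ to 3′ on the strand of the gene, with matches in capitals. A match is the motif ACGTG, or its variant with first letter G, the motif GCGTG, on either strand, so reverse complements are also in capitals and a palindrome counts once on each strand. They are Ldha (chr7:46845554-46845803, + strand, 5 matches), Pgk1 (chrX:106186850-106187099, + strand, 2 matches), Pdk1 (chr2:71872974-71873223, + strand, 1 match) and Slc2a6 (chr2:27027999-27028248, - strand, 4 matches).
Ldha: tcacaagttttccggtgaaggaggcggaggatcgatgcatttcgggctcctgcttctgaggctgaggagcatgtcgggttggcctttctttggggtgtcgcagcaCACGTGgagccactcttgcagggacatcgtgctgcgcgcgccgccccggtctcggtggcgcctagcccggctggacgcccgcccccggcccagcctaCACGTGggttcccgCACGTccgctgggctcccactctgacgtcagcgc
Pgk1: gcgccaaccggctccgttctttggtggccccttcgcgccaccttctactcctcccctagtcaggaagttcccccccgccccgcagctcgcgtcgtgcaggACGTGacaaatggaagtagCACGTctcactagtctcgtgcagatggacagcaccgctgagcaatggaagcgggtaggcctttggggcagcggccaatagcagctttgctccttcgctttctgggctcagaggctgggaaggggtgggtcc
Pdk1: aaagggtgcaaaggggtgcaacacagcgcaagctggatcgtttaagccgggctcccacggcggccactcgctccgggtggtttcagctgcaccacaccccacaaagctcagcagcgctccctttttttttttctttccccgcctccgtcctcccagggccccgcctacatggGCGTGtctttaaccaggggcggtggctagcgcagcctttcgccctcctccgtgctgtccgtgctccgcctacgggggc
Slc2a6: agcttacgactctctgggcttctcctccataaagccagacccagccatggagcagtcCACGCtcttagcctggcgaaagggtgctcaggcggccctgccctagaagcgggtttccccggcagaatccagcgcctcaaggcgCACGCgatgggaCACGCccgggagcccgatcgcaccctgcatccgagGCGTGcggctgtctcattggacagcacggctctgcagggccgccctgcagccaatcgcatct

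The core was in 70% of the promoters of glycolysis genes that rose (14 of 20) and in 81.2% of those of hypoxia targets that rose (13 of 16). It was also in all 3 promoters of the glycolysis genes that fell, in 82.4% of 17 promoters of stress response genes that fell, in 57.2% of all genes tested with a promoter in the table and in 38.6% of all 27025 promoters. Among genes at least 2-fold higher the share was 51.8%, and among those at least 2-fold lower it was 50.2%. A match of these letters is a description of the sequence and not a bound site.

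Mitochondrial genes changed little, and in the nuclear lists named here more members were lower than higher. The share lower was 42.3% in the tricarboxylic acid cycle and 32.4% in the nuclear respiratory chain, against 26.1% over all genes tested. Over all genes tested at 10 to 100 CPM the share lower was 33.2%, and above 100 CPM it was 39.9%, so these 2 shares were near those of well-counted genes. For mitochondrial ribosomal proteins it was 56%. Among mitochondrially encoded genes it was 18.2%, with 8 not called and a median of 0.006. In the tricarboxylic acid cycle 3 of 26 genes were higher and 11 lower (median -0.09), and among 34 nuclear genes of the respiratory chain 3 were higher and 11 lower (median -0.13). Cs, citrate synthase, rose from 354, 357 and 326 CPM to 526, 535 and 524 CPM (log2 fold change 0.61, SE 0.05, edgeR adjusted p = 1.1e-09), and the cytosolic isocitrate dehydrogenase gene Idh1 from 25.3 to 38.9 CPM (0.62, SE 0.07), far under its 413 to 428 CPM in control. Pdhb, of the pyruvate dehydrogenase complex, fell from 87.4 to 64.3 CPM (-0.44, SE 0.06). Of 11 mitochondrially encoded genes COX1 was higher (0.23) and CYTB (-0.41) and ND4 (-0.23) lower. Mitochondrial ribosomal protein genes had 14 of 25 lower and 0 higher (median -0.24), led by Mrpl3 at -0.63. Leaving out LPS replicate 2 or LPS plus BHB replicate 1 left 1 respiratory chain gene higher, and without LPS plus BHB replicate 2 there were 5 tricarboxylic acid cycle genes higher. Without LPS plus BHB replicate 1, 2 mitochondrially encoded genes were higher.

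Fatty acid oxidation had 9 of 23 genes higher and 5 lower (median 0.08). Cpt1a, the gate for fatty acid entry into mitochondria, rose from 95.8, 90.1 and 77.4 CPM to 200, 214 and 210 CPM (log2 fold change 1.25, SE 0.06, edgeR adjusted p = 3.19e-11), with 327 to 341 CPM in control. In the liver X receptor and lipid storage list, with 7 of 21 higher and 6 lower (median -0.06), Fabp5, a fatty acid-binding protein gene, fell from 190 to 67.8 CPM (-1.49, SE 0.05) and Fasn, fatty acid synthase, from 95.8 to 43.8 CPM. Hilpda, a lipid droplet protein that holds back lipolysis, rose from 38.2 to 102 CPM, and the cholesterol exporter gene Abca1 from 826 to 1362 CPM. Sterol synthesis genes had 6 of 25 higher and 6 lower (24% each, median 0.01), near the 26.8% and 26.1% over all genes tested. Insig1, which holds the sterol-sensing machinery in the endoplasmic reticulum, fell from 249.4 to 180.8 CPM (-0.46, SE 0.05). Stard4, a cholesterol transfer protein gene, rose from 4.28 to 7.42 CPM (0.79, SE 0.15).

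Genes that supply and charge amino acids fell as groups. In the amino acid supply list 14 of 17 genes were lower and 2 higher (median -0.68), and in the list of cytosolic tRNA synthetases 16 of 20 were lower and 0 higher (median -0.50). Psph, of serine synthesis (chromosome 5, 129765558 to 129787449, - strand), fell from 42.7, 44.4 and 42.5 CPM to 18.0, 17.8 and 15.1 CPM (log2 fold change -1.35, SE 0.08, edgeR adjusted p = 1.91e-11). Slc7a5, which imports large neutral amino acids, fell from 286, 287 and 262 CPM to 131, 138 and 80.9 CPM (-1.25, SE 0.23). The groups did not overlap for either gene, as for 59.9% of all genes tested, and LPS plus BHB replicate 3 was the lowest library for both. Slc1a5, which takes up glutamine, fell from 45.9 to 21.6 CPM, and Shmt2, which passes serine carbon to folate, from 202 to 89.3 CPM. Slc7a11, the cystine importer gene, went the other way, from 580 to 856 CPM (0.56, SE 0.09).

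The synthetase genes moved within a narrow band, from Farsa at -0.25 to Sars at -0.71 among those called. Iars, for isoleucine, stood at 473, 477 and 467 CPM with LPS and 310, 320 and 277 CPM with LPS plus BHB (log2 fold change -0.64, SE 0.05, edgeR adjusted p = 2.4e-09), and control held 59.8 to 64.4 CPM. Dars, Mars and Qars, at -0.05, -0.05 and -0.04, and the sparsely counted Vars were not called. In the unfolded protein and integrated stress response list 20 of 28 genes were lower and 2 higher (median -0.27). Hspa5, the chaperone BiP, fell from 6984 to 5525 CPM (-0.34, SE 0.04), Sel1l, of the degradation machinery of the endoplasmic reticulum, from 820 to 553 CPM, and Atf4, the factor that drives many amino acid genes, from 929 to 774 CPM (-0.26). Proteasome subunits had 17 of 23 lower and 0 higher (median -0.30), with Psmc1 from 102 to 71.9 CPM as the largest of them. Of 24 cytosolic ribosomal protein genes 16 were not called, 2 were higher and 6 lower (median -0.00). Without LPS replicate 3 or LPS plus BHB replicate 1, 1 was higher. Some were listed at low levels, such as Rpl10a at 6.5 and 4.3 CPM and Rpl27 at 6.1 and 4.1 CPM. Sequence shared with other genes was not computed for this list, which limits its use as a contrast.

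**Figure D5:**
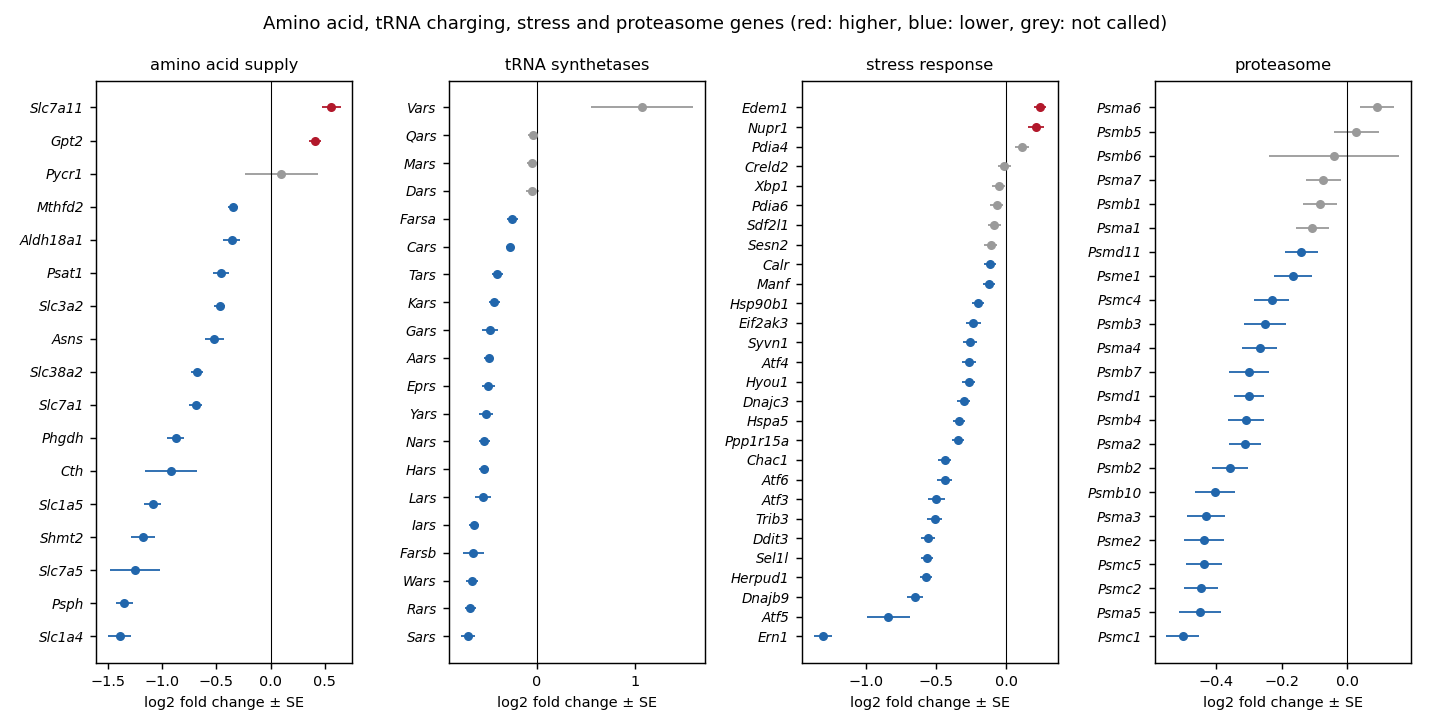
Log2 fold change with its SE (horizontal axis, scaled separately in each panel) of the tested genes of amino acid supply, cytosolic tRNA synthetases, stress response and proteasome subunits, coloured by call as red higher, blue lower and grey not called. Most points lie left of 0, with 14 of 17, 16 of 20, 20 of 28 and 17 of 23 genes lower.

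Redox and metal genes showed selective changes. Of 25 oxidative stress genes 11 were higher and 10 lower (median 0.06). Gclc, the rate-limiting enzyme of glutathione synthesis, fell from 88.8 to 45.6 CPM (log2 fold change -0.96, SE 0.06, edgeR adjusted p = 1.42e-10) and Srxn1, which repairs peroxiredoxins, from 285 to 174 CPM, whereas the glutathione peroxidase gene Gpx1 rose from 128 to 218 CPM. Foxo3, a stress-resistance factor, rose from 48.0, 50.2 and 47.1 CPM to 55.6, 63.6 and 63.5 CPM (0.33, SE 0.06), far below its 226 to 255 CPM in control. In the iron and metallothionein list 11 of 17 genes were lower and 4 higher (median -0.19). Slc39a8, which imports zinc, stood at 44.0, 47.1 and 43.6 CPM with LPS and 10.6, 10.8 and 9.96 CPM with both agents (-2.10, SE 0.08, edgeR adjusted p = 2.4e-14), and Slc30a1, which exports it, at 245, 241 and 246 CPM against 70.7, 80.7 and 55.7 CPM (-1.82, SE 0.12). Both sets of libraries were apart. The metallothionein gene Mt2 was at 10.02 and 9.93 CPM (-0.01, adjusted p = 0.955), with 73.5% of its exons overlapping another gene. Fth1, the ferritin heavy chain that stores iron, rose from 11780, 11490 and 11800 CPM to 20530, 19100 and 19640 CPM (0.76, SE 0.04), and the transferrin receptor gene Tfrc fell from 113 to 57.2 CPM.

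Genes tied to ketone bodies themselves did not move as a group, with 4 of 11 higher and 3 lower (median -0.04). Hcar2, the surface receptor gene, rose from 146, 160 and 170 CPM to 298, 285 and 318 CPM (log2 fold change 0.92, SE 0.06, edgeR adjusted p = 6.52e-11), and control held 0.322, 2.26 and 2.47 CPM. Oxct1, which activates ketone bodies for oxidation in mitochondria, fell from 43.8, 41.7 and 44.5 CPM to 30.0, 28.2 and 35.0 CPM (-0.48, SE 0.08), and its control level was 231 to 235 CPM. For these genes the LPS and LPS plus BHB libraries were apart. Bdh2, of the cytosolic dehydrogenase, rose from 0.726 to 5.53 CPM (2.92, SE 0.24). Bdh1, of the mitochondrial enzyme that oxidises beta-hydroxybutyrate, was listed at 0.465 and 0.248 CPM (-0.89, adjusted p = 0.216), and was called without LPS plus BHB replicate 2 (-1.81, adjusted p = 0.0422).

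Of 26 histone acetylation genes 8 were higher, 5 lower and 13 not called (median 0.10), and 4 were higher without LPS replicate 1. The class I deacetylase genes Hdac1, at 25.3 CPM in both groups (log2 fold change -0.00, SE 0.08), and Hdac3, at 33.6 and 31.7 CPM (-0.08, SE 0.07), were not called, with edgeR adjusted p of 0.974 and 0.369, and Hdac2 fell (-0.19). Class IIa members rose: Hdac7 from 3.85, 2.81 and 3.17 CPM to 11.7, 10.8 and 17.9 CPM (2.03, SE 0.19), with Hdac5 at 0.73, Hdac9 at 0.70 and Hdac4 at 0.25. The sirtuin deacetylase gene Sirt2 fell from 194 to 133 CPM.

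Several routes of signalling by small molecules were higher. In the prostaglandin and leukotriene list 7 of 15 genes rose and 4 fell (median 0.32). Ptges, the inducible synthase that makes prostaglandin E2 (chromosome 2, 30889471 to 30929863, - strand), stood at 268, 271 and 267 CPM with LPS and 1142, 1162 and 1244 CPM with LPS plus BHB (log2 fold change 2.14, SE 0.05, edgeR adjusted p = 1.64e-17). Its receptor gene Ptger2 rose from 11.3, 10.7 and 9.05 CPM to 45.7, 44.4 and 48.4 CPM (2.15, SE 0.09), with 19.2 to 20.02 CPM in control. No library with LPS alone reached those with both agents. The upstream cyclooxygenase gene Ptgs2 was slightly lower, at 2659 and 2423 CPM (-0.13, SE 0.04), and Hpgds, which makes prostaglandin D2, fell from 37.9 to 17.1 CPM.

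Among purine receptors and ATP-degrading enzymes 6 of 11 genes were higher and 2 lower (median 0.42). Adora2b, an adenosine receptor coupled to cyclic AMP, rose from 5.42, 4.42 and 4.43 CPM to 40.8, 36.9 and 44.9 CPM (log2 fold change 3.10, SE 0.11, edgeR adjusted p = 7.32e-15), where control held 2.40 to 2.44 CPM. P2ry6, a receptor for UDP, rose from 15.8, 14.1 and 13.05 CPM to 100, 93.3 and 107 CPM (2.80, SE 0.08), still below the 184 to 200 CPM of control. Of 21 genes of the cyclic AMP response and NR4A list 15 were higher and Rgs2 (-0.55) lower (median 0.52), though 0 were lower without LPS replicate 1, LPS replicate 3 or LPS plus BHB replicate 1. Akap12, a scaffold for protein kinase A, went from 0.0840 to 5.17 CPM (5.85, SE 0.46) and Pde4d, which degrades cyclic AMP, from 1.89 to 7.67 CPM. AP-1 and EGR factors had 9 of 15 higher and 3 lower (median 0.51), with Ier3 up from 25.9 to 73.9 CPM and Batf down from 71.3 to 35.4 CPM. In the core clock list 7 of 12 genes were higher and 2 lower (median 0.41), with Per2 at 1.88, 1.83 and 1.82 CPM against 10.8, 10.5 and 11.5 CPM (2.57, SE 0.14) and Nr1d1 up from 0.713 to 3.57 CPM. Without LPS plus BHB replicate 2, 5 AP-1 and EGR genes were lower. Without LPS replicate 1 or 2, or LPS plus BHB replicate 1 or 3, 1 clock gene was lower.

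Transcription factors of the macrophage lineage changed in both directions, with 9 of 22 higher and 11 lower (median -0.08). Cebpa rose from 16.5, 16.9 and 20.4 CPM to 53.6, 53.0 and 56.0 CPM (log2 fold change 1.59, SE 0.08, edgeR adjusted p = 1.78e-12), against 288 to 321 CPM in control, and Id3, an inhibitor of helix-loop-helix factors, from 24.4 to 75.2 CPM. Mitf rose from 257 to 553 CPM while its relatives Tfec (-1.34) and Tfeb (-0.37) fell. Irf8, which directs monocyte fate, fell from 106 to 51.6 CPM (-1.04, SE 0.06), and Spi1, the gene of PU.1, from 701 to 565 CPM. Markers of alternative activation were mostly lower, 7 of 10 tested with 2 higher (median -0.93, but -0.24 with no filter on low counts, which adds listed markers left untested here), although Egr2 rose from 11.1 to 33.5 CPM and Il4ra from 51.5 to 69.5 CPM. Of the 17 listed markers 7 were not tested. Arg1 had 0 to 5 counts per library, and Retnla, Chil3, Cd163, Clec10a, Mgl2 and Ccl17 had at most 6. The lean lower therefore covers only the tested members and not these markers, which were scarcely counted in either group.

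Growth factor and BMP genes had 13 of 22 higher and 2 lower (median 0.32). Gdf15, a stress-induced member of the TGF-beta family, fell from 70.2 to 23.1 CPM (log2 fold change -1.61, SE 0.08, edgeR adjusted p = 2.95e-12), and Smad7, an inhibitor of TGF-beta receptors, rose from 1.52 to 10.5 CPM. Without LPS replicate 3, or with all 9 libraries in the fit, 4 of these genes were lower. In the plasminogen and coagulation list 8 of 15 were higher and 3 lower (median 0.57). Thbs1, which encodes thrombospondin, stood at 275, 272 and 256 CPM with LPS and 749, 796 and 934 CPM with LPS plus BHB (1.63, SE 0.07), with no overlap, while the urokinase receptor gene Plaur fell from 238 to 128 CPM. F3, tissue factor, rose from 1.67 to 12.8 CPM (2.94, SE 0.30). Of 15 integrin genes 9 were higher and 1 lower (2 without LPS plus BHB replicate 3; median 0.34), with Itgav, the vitronectin receptor alpha chain, at 312, 307 and 289 CPM against 948, 973 and 1198 CPM (1.78, SE 0.08). Matrix proteases and inhibitors had 8 of 19 higher and 5 lower (median 0.03), among them Mmp14 up from 608 to 1079 CPM and Adamts1 down from 16.2 to 4.19 CPM.

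Surface receptors for contact with other cells fell in the SLAM family and divided among costimulatory genes. In the SLAM family, which bind each other between leukocytes, 6 of 7 genes were lower and 0 higher (median -1.11). Slamf7 (chromosome 1, 171632403 to 171653035, - strand) fell from 562, 601 and 641 CPM to 166, 184 and 158 CPM (log2 fold change -1.83, SE 0.06, edgeR adjusted p = 3.17e-14), without overlap, and control held 37.6 to 42.1 CPM. Ly9 fell from 305 to 141 CPM and Slamf1 from 9.11 to 1.96 CPM. Of 13 costimulatory and checkpoint genes 7 were lower and 5 higher (median -0.34). Cd83 fell from 634, 630 and 634 CPM to 295, 308 and 286 CPM (-1.09, SE 0.05), Cd40 from 1406 to 1034 CPM and Cd274, the gene of PD-L1, from 849 to 600 CPM. Icosl rose from 127 to 344 CPM (1.43, SE 0.05) and Cd86 from 31.9 to 54.3 CPM. C-type lectin receptor genes had 5 of 10 lower and 2 higher (median -0.05), with 1 higher when LPS replicate 1, LPS replicate 2 or LPS plus BHB replicate 1 was left out.

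Receptors for antibody, complement and dying cells tended upward. Of 12 Fc and complement genes 8 were higher and 0 lower (1 without LPS plus BHB replicate 3; median 0.34), with the inhibitory Fc receptor gene Fcgr2b at 160, 153 and 137 CPM against 364, 348 and 348 CPM (log2 fold change 1.23, SE 0.05, edgeR adjusted p = 3.02e-13). Scavenger and efferocytosis receptors had 7 of 16 higher and 3 lower (median 0.08, and -0.01 without LPS plus BHB replicate 3), with Axl, which binds dying cells through GAS6, up from 128 to 254 CPM and Scarb2 from 65.9 to 144 CPM. Lysosomal and autophagy genes leaned lower: 14 of 27 lysosomal genes fell and 4 rose (median -0.16), and 11 of 24 autophagy genes fell and 4 rose (median -0.16). The shares lower were 51.9% and 45.8%, against 33.2% over all genes tested at 10 to 100 CPM and 39.9% above 100 CPM. The proton pump subunit Atp6v1a stood at 1003, 983 and 990 CPM against 591, 617 and 572 CPM (-0.74, SE 0.04). Sqstm1, the cargo receptor p62, fell from 9254 to 6079 CPM (-0.61, SE 0.05), and Wipi1 rose from 13.1 to 28.2 CPM.

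Survival, division and sialylation genes moved gene by gene. Of 16 BCL2 family genes 6 were lower and 2 higher (median -0.04). The survival gene Bcl2l1 fell from 38.3, 37.4 and 39.5 CPM to 12.1, 12.7 and 14.6 CPM (log2 fold change -1.55, SE 0.08, edgeR adjusted p = 5.32e-12). Death genes went apart, with Bbc3 up from 46.1 to 86.2 CPM and Bcl2l11 down from 151 to 107 CPM (-0.50, SE 0.05). Cell cycle genes had 7 of 29 higher and 11 lower (median -0.02), among them the inhibitors Cdkn1b, up from 63.6 to 155 CPM, and Cdkn1a, down from 1377 to 926 CPM. In the sialyltransferase list, with 5 of 10 higher and 4 lower (median 0.16), St8sia4, which builds polysialic acid, rose from 54.2, 55.4 and 52.4 CPM to 266, 281 and 290 CPM (2.37, SE 0.05, edgeR adjusted p = 1.64e-17). Control held 211 to 215 CPM of it. St3gal1, which caps O-glycans, fell from 778 to 409 CPM. Of 286 numbered zinc finger genes 73 were higher, 48 lower and 165 not called (median 0.04), shares of 25.5% and 16.8%.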

How the data were processed

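RNA-seq libraries of bone marrow-derived macrophages were described by a table of raw read counts per gene symbol, deposited by the authors. Alignment used HISAT2 and mm10, per the submitters' processing notes; the counting tool, annotation and strand setting were not given in the sources used here. Columns were matched to groups by their names. The 6 libraries with LPS or LPS plus BHB were fitted alone in R 4.3.3 with edgeR 4.0.16: filterByExpr with a minimum count of 10 kept 13005 of 46095 symbols and 99.946% of counts, followed by TMM scaling, glmQLFit and glmQLFTest, with Benjamini-Hochberg adjustment over all genes kept and a threshold of 0.05. The fit had 4 residual degrees of freedom and a biological coefficient of variation of 6.76%. Each SE was obtained as |log2 fold change|/sqrt(F), which is approximate. Control CPM came from a scaling of all 9 libraries, which moves the CPM of the 6 by at most 5.76%. Library totals limit precision by counting error only. Replicates of a group differed beyond sampling noise, with a chi-square of 3.17 to 11.2 per degree of freedom, so none was counted as a duplicate.

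Genes named are the 3 smallest p-values of each gene list, the 15 largest rises and 15 largest falls among calls (averaging 5 CPM or more, without overlap between the groups), and a fixed set of genes of interest; some are not reported here. Members, lists and this rule were chosen with earlier results of these data known. Alternatives were DESeq2 1.42.0, other scalings and filters, a minimum fold test, all 9 libraries in the fit, a replicate block and leaving out each library. The scripts were tested on simulated data. Promoters are from RefSeq's table for GRCm38.p6. Some genes that share sequence with, or overlap, other genes are marked, since the counting is not known to use strand. Shared words were computed only for the largest rises and falls and a few other genes. Exon overlaps of Il1a (11.2%), Ncf1 (11.1%), Psph (10.4%), Oxct1 (12.6%) and Bdh1 (13.7%) are not marked where these genes are named. An unmarked gene is therefore not cleared of shared reads.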

Additional observations from a re-analysis of the deposited data

How the results depend on the processing

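Among genes called both in the reported fit and in an alternative, 0 had opposite directions in any alternative run. With the minimum count raised to 50, 290 genes in place of 455 were at least 2-fold lower. Testing against a minimum fold of 1.5 (edgeR's glmTreat) changed the number of genes higher with LPS plus BHB from 3487 to 1148 and the number of genes lower with LPS plus BHB from 3396 to 567, and 52 of the 186 named genes lost their call under it. Library totals without TMM scaling gave 3115 higher and 3915 lower (44.3% of calls higher against 50.7%) and moved the median of all genes from -0.007 to -0.054, so list medians near 0, such as those of sterol synthesis, numbered zinc finger genes and matrix proteases, changed sign. DESeq2 called 6476 genes in place of 6883. Leaving out 1 library at a time gave 3184 to 3341 genes higher, 2988 to 3275 lower, a number of genes at least 2-fold higher of 942 to 1069 and a number of genes at least 2-fold lower of 439 to 507. With all 9 libraries in the fit Il1a, Il6, Il12b and Acod1 were not called. The cause was not tested. With the replicate number as a block 6922 genes were called, 3505 higher and 3417 lower. Deviations of libraries with the same number correlated at 0.044, 0.026 and 0.046, each library correlating best with its own number, all under 0.1, so pairing is not shown. The median of the inflammatory cytokine list was 0.13 without LPS plus BHB replicate 2, in place of -0.05, and that of alternative activation markers was -0.24 with no filter on low counts, in place of -0.93.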
